A study of Mus musculus with 38 samples.

Results

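The 10 arrays of mice kept on the low fat control diet (LFC) were taken from a series of 38 one-colour Agilent arrays, chosen by the diet named in their titles. They form a time course with 1 array per time point, named by its label: D6, D10 and D14 for days 6, 10 and 14, then W0, W3, W6, W9, W12, W15 and W18 for weeks. The mice were C57BL/6J, weaned at 3 to 4 weeks of age, and all of them ate a normal diet with 10% of calories from fat and received no formulation. A week label was converted to an elapsed day as 14 days plus 7 days per week, so that D14 and W0 share an elapsed day and W18 lies at day 140. The 4 arrays from D6 to W0 are called early and the 6 arrays from W3 to W18 late. The comparison diet is a high fat, high sucrose diet (HFC, 10 arrays at the same times), with 60% of calories from fat. The labels describe groups of 30 animals of which 5 were sacrificed at each sampling, and do not say how many animals gave the RNA of an array. The question was how expression under the control diet moved with time, since each LFC array is the baseline of its time point. Time since the start, the age of the mice, the slide and the scan day cannot be told apart, because each time point had its own slide and scan day.

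The labels name the tissue as macrophages infiltrating epididymal fat, with the abbreviation SVC for stromal vascular cells, the cells of fat tissue that are not adipocytes. Fat tissue of a young mouse still grows: its precursor and immune cells divide, fibroblasts lay down collagen and elastin, and mature adipocytes, which no longer divide, fill with lipid. Cells that enter division switch on genes of DNA replication first and genes of mitosis later, and many mitosis genes carry promoter elements that keep them silent in resting cells. Macrophages clear debris and lipid, plasma cells secrete antibody, and interferon switches on a set of antiviral genes in nearly every cell type.

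Levels below are log2 values of the processed signal relative to the 75th percentile of the same array, so that 0 marks a probe at that percentile. Levels of different probes are not compared with each other. A probe was tested when Feature Extraction marked it well above background on at least 0.5 of the arrays of the early or the late group, and a saturated probe was kept at its value, which is then a lower bound. The 75th percentile signal itself ran from 229 to 1537 scanner units, and 56.0% to 73.9% of probes were well above background on an array. D6, D10 and W18 were the dimmest arrays (229, 262 and 230 units). W18 had the fewest probes well above background (56.0%, with D6 next at 64.5%), so low levels on W18 are less certain.

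Markers of several tissues differed among the 10 arrays, and some arrays went against their label. Macrophage genes were measured throughout (mean level of 16 genes 0.48 to 2.34), but so were adipocyte genes (mean of 10 genes 0.66 to 5.19) and stromal genes (mean of 13 genes 1.52 to 2.69), so the RNA was not of macrophages alone. On D6 and D10 the defining transcription factor of visceral fat, Wt1, stood at -7.06 and -7.20, and was not well above background, against -1.73 to 0.91 on the other 8 arrays. Msln, a marker of the mesothelium that covers epididymal fat, stood at -5.84 and -4.28 there and at 1.97 to 3.38 on the others. Ucp1, the uncoupling protein of brown fat, was 3.83 on D6 and 5.11 on D10 and no higher than -3.40 on the other 8. The label of epididymal fat is therefore not borne out by these markers on D6 and D10. The HFC arrays of D6 and D10 had Wt1 at 1.56 and 1.18 and Ucp1 at -2.46 and -5.05.

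W9 and W12 stood apart in another way. The immediate early genes, which cells switch on within minutes of handling or stimulation, had a mean level of 0.31 and 0.28 on these arrays and of 4.00 to 5.69 on the other 8. The mean of the inflammatory macrophage genes was -5.25 and -5.74 there and -0.88 to 1.33 elsewhere, and that of adipocyte genes 5.19 and 4.87 against 0.66 to 3.90. Of the 10 adipocyte probes, 8 were saturated on W9 and 8 on W12, so those adipocyte means are lower bounds. W6 carried skeletal muscle genes (mean 4.28, against -3.32 to 0.64 on the other 9), and D14 carried epididymis genes (mean 4.16, with W3 at 0.24 and W6 at -0.81 next). Of the 12 epididymis genes, 10 were well above background on W0 and 9 on each of W3, W6 and W15. Several list results are also given without D6 and D10 or without W9 and W12, and the part of these tissues in the results was not tested. In bulk RNA, fewer cells of a type and less RNA per cell cannot be told apart.

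**Figure D1:**
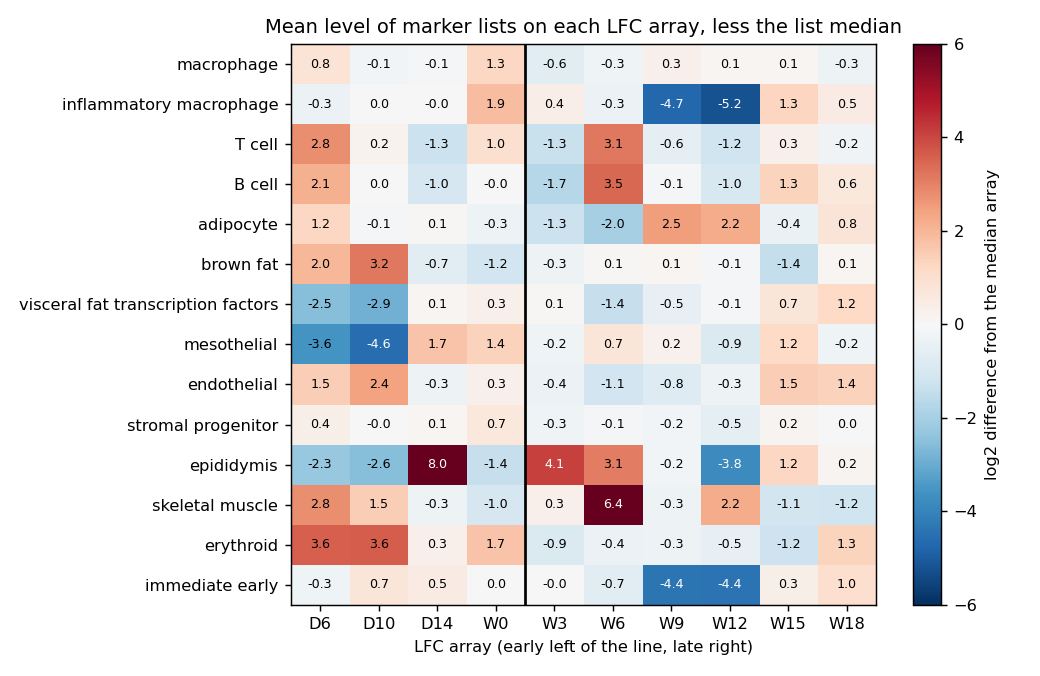
Mean level of 14 marker lists (rows) on the 10 LFC arrays (columns, in time order, early arrays left of the line), drawn as the log2 difference from the median of the 10 arrays. D6 and D10 have low mesothelial and visceral fat values, W9 and W12 low immediate early and inflammatory values, W6 a high muscle value and D14 a high epididymis value.

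No probe passed the test between late and early arrays. Of 30321 probes tested with limma, 0 had a Benjamini-Hochberg adjusted p under 0.05, and the smallest adjusted p was 0.658. At an unadjusted p under 0.05 there were 1573 probes, 5.19% of those tested, of which 1093 were lower late (3.6%) and 480 were higher late (1.58%). The methods' t-test called 0 after adjustment and 1517 at an unadjusted p under 0.05. Early and late levels did not overlap in 200 probes lower late (0.66%) and in 102 probes higher late (0.336%). The median late minus early difference over all tested probes was -0.09 on the log2 scale. Differences below are therefore descriptions of these 10 arrays, and none of the named genes passed the adjusted test.

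Pairs of arrays differed by as much within a phase as between phases. Among probes well above background and unsaturated on both arrays of a pair, 16.7% to 49.1% were at least 2-fold apart over the 45 pairs. The median was 33.5% for pairs of early arrays, 38.2% for pairs of late arrays and 35.4% for an early with a late array. D14 and W0, which share an elapsed day, differed at least 2-fold in 24.4% of probes. The closest pair was W9 and W12 (16.7%).

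Genes of mitosis were lower on the late arrays than on the early ones. The list held 19 genes with a probe, all tested and 14 of them well above background on all 10 arrays. All 19 had a lower mean on the late arrays, by 0.78 to 2.40 on the log2 scale, with a median difference of -1.84. An unadjusted p under 0.05 was reached by 16 of 19, beside 3.6% of all probes, and 6 of 19 did not overlap between phases, beside 0.66%. The genes of a list share the same 10 arrays, and lists were chosen with earlier results of these data known. Such shares, here and for the lists below, are therefore descriptions and no test. The mean level of the list was 0.43, -0.87, -0.91 and -0.55 on D6, D10, D14 and W0. On the late arrays it was -2.03, -1.20, -2.27, -3.43, -1.99 and -2.70 from W3 to W18. D6 was the highest array and W12 the lowest, and no late array reached the lowest early one. The gap was narrow, with W6 next to D14.

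The promoters of mitosis genes are shown here because these genes moved together and because their promoters share short elements. Promoters of such genes are known to carry repeated CCAAT boxes, bound by the factor NF-Y, and an element read as TTTGAA that helps to silence them in resting cells. The sequences run from 250 bases before to 50 bases after the start of the gene in RefSeq on the build GRCm38.p6, written 5′ to 3′ on the strand of the gene. Capitals mark CCAAT and TTTGAA on either strand (ATTGG and TTCAAA on the other), with overlapping matches run together. The fourth sequence is of the replication gene Mcm3, which has the first motif and not the second.
Ccnb2 (chr9:70421505-70421804, minus strand): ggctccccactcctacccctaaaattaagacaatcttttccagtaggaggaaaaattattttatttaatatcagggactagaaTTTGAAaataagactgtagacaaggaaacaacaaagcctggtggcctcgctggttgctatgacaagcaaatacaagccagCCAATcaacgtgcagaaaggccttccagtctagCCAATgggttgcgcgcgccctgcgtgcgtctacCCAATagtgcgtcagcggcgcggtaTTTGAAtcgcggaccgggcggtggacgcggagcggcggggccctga
Ube2c (chr2:164769679-164769978, plus strand): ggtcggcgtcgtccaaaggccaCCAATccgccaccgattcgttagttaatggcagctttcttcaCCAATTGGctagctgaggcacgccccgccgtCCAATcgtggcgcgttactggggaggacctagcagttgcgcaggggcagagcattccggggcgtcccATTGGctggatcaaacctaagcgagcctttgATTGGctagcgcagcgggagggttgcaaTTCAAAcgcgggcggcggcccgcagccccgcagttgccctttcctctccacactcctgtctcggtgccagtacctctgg
Top2a (chr11:99024140-99024439, minus strand): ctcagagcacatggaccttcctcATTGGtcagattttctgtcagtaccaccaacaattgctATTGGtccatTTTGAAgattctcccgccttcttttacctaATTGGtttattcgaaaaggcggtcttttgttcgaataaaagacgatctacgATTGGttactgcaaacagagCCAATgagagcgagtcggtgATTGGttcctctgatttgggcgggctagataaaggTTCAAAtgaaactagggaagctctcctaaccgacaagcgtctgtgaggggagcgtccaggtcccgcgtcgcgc
Mcm3 (chr1:20820263-20820562, minus strand): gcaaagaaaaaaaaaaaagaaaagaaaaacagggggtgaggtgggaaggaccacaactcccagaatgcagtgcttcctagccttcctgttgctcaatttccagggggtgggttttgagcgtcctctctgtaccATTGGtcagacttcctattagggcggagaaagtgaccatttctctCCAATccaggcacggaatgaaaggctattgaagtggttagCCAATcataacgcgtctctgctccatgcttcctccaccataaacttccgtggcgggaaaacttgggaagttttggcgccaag

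CCAAT was found 3 times in the Ccnb2 window, 6 times in that of Ube2c, 6 times in that of Top2a and 3 times in that of Mcm3. TTTGAA was found 2 times, 1 time, 2 times and 0 times in the same order. Not all mitosis genes were alike: each window of Prc1 and Cenpe held CCAAT 1 time, and that of Cenpe held no TTTGAA. Of the 19 mitosis genes, 16 had a promoter in the table, with 17 windows among them, of which 15 held CCAAT (88.2%) and 12 held TTTGAA (70.6%). Of all 32851 windows in the table, 37.4% held CCAAT and 17.9% held TTTGAA. The replication list had 19 windows for 17 genes, of which 68.4% held CCAAT and 15.8% held TTTGAA. At least 2 CCAAT were in 52.9% of the mitosis windows, 31.6% of the replication windows and 11.7% of all windows. A match describes the letters and is not a binding site shown in these cells.

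Ccnb2, the cyclin B2 that drives entry into mitosis with Cdk1, had levels of 2.48, 1.33, 1.02 and 1.53 on the early arrays. Its late levels were -0.44, 0.61, -0.69, -1.68, -0.54 and -1.08. Every early array was above every late one, and the difference was -2.23 ± 0.47 (SE), a 4.68-fold lower mean (limma adjusted p = 0.658). Prc1, which bundles the microtubules of the dividing spindle, stood at 1.82, 0.64, 0.64 and 1.09 early and at -0.91, -0.36, -1.32, -2.20, -0.94 and -1.33 late, again without overlap (difference -2.22 ± 0.41). Both probes of Prc1 were lower late. Cdk1, the kinase of mitotic entry, ran from -1.89 to -0.95 early and from -6.06 to -2.20 late, with the lowest value on W18 (difference -2.40). On W18, a dim array, 15 of the 19 mitosis genes were well above background.

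Other mitotic genes differed by a like size with some overlap. Mki67, the proliferation marker Ki-67, was 3.40, 1.27, 2.15 and 2.57 early and 0.89, 1.64, 0.25, -0.98, 1.60 and 0.08 late, so that W6 and W15 lay above D10. Top2a, the topoisomerase that untangles chromosomes, ran from -1.99 to -1.20 early and from -5.58 to -1.89 late. Cenpe, a kinetochore motor, did not overlap, with 0.48 to 2.39 early and -1.25 to -0.14 late (difference -1.83). Ube2c, the ubiquitin-conjugating enzyme of the anaphase-promoting complex, was 4.27-fold lower late, with W6 at -0.996 just above D14 at -1.03. Kif11, a spindle motor, was the member nearest to no difference (-0.78), and its levels scattered from -8.80 to -2.11.

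The mitosis difference was also taken without D6 and D10 and without W9 and W12. W6 and D14, which carried muscle and epididymis genes, were left out only 1 at a time. Without D6 and D10 the median was -1.65, and 13 of 19 genes were lower late at an unadjusted p under 0.05, beside 1.82% of all probes, and 9 did not overlap, beside 2.73%. Without W9 and W12 it was -1.69, with 15 of 19 beside 2.47% and 6 without overlap beside 1.29%. Without all 4 of these arrays it was -1.43, with 8 of 19 beside 1.27% and 9 without overlap beside 4.28%. After normexp background correction, in place of the processed signal, the median was -0.93.

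DNA replication genes were lower late by a smaller amount. All 21 genes with a probe were tested, and 10 were lower late at an unadjusted p under 0.05, beside 3.6% of all probes, with a median difference of -0.92 and all 21 differences below 0. The mean level was 0.46, -0.26, -0.29 and -0.17 on the early arrays and -1.06, -0.39, -0.81, -1.37, -1.10 and -1.41 on the late ones, without overlap. Without D6 and D10, 2 of 21 were lower late at an unadjusted p under 0.05, beside 1.82%, and the median was -0.57. After normexp the median was -0.53.

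Members of the replication machinery differed among themselves. Mcm3, a subunit of the replicative helicase, was 0.41, 0.17, -0.57 and -0.64 early and -2.21, -0.66, -1.67, -2.77, -1.48 and -2.56 late, without overlap (difference -1.74 ± 0.46). Rrm2, the regulated subunit of ribonucleotide reductase, was -1.76 to 0.15 early and -4.24 to -2.14 late, also without overlap (difference -1.94 ± 0.50). Mcm6, another helicase subunit, did not overlap either, by a narrow margin, with D14 at 2.89 and W6 at 2.88. Mcm2 had no such pattern, since W6 stood at -0.085, above 3 early arrays, and W18 alone at -5.97. Rfc4, a subunit of the clamp loader, differed by -0.033 between the means.

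**Figure D2:**
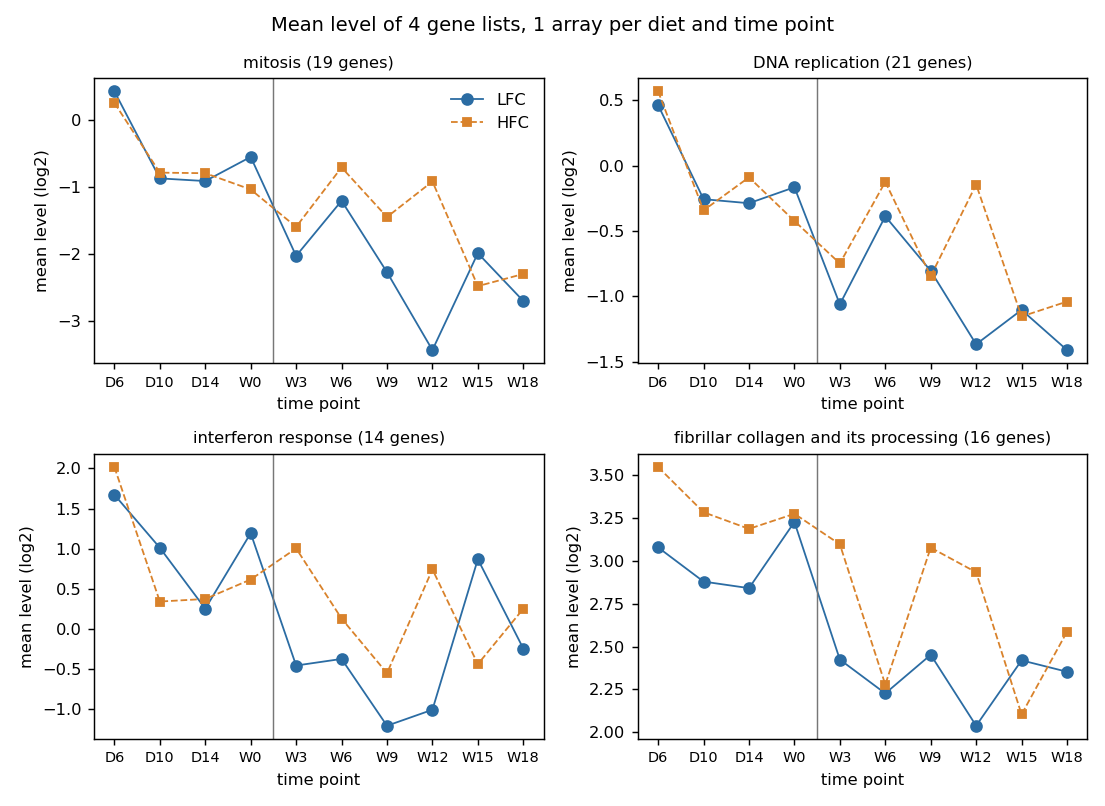
Mean level (log2, relative to the array 75th percentile) of 4 gene lists at each time point, with 1 LFC array (circles) and 1 HFC array (squares) per point and a line between early and late. The mitosis and DNA replication means of LFC are lower on each late array than on each early one, whereas the HFC means of these lists overlap. The collagen means do not overlap in either diet.

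Interferon response genes were lower on most late arrays and not on all. The list had 14 genes, all tested, all with a lower late mean, and a median difference of -1.39. At an unadjusted p under 0.05, 7 of 14 were lower late, beside 3.6% of all probes, and 4 did not overlap, beside 0.66%. The mean level of the list was 1.67, 1.01, 0.25 and 1.19 early and -0.46, -0.37, -1.21, -1.01, 0.87 and -0.24 late. W15 lay above D14, so the groups overlapped. Without D6, D10, W9 and W12 the median was -0.74, and 1 of 14 was lower late at an unadjusted p under 0.05, beside 1.27%.

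Irf7, the transcription factor that amplifies the interferon response, was 1.56, 0.30, -0.26 and 0.28 early and -2.38, -0.97, -2.01, -2.31, -1.07 and -3.42 late. No late array reached an early one, and the difference was -2.50 ± 0.54 (limma adjusted p = 0.708). Usp18, which removes the ubiquitin-like protein Isg15, was 0.42 to 1.57 early and -1.02 to -0.012 late, without overlap. Oasl2 and Oas1a, of the oligoadenylate synthetase family, did not overlap either, with differences of -1.33 and -1.45. Isg15 and Rsad2 did overlap: on W15 they stood at 2.30 and 2.41, above D14 at 1.06 and 1.08.

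Matrix genes were lower late by a smaller step. The fibrillar collagen list, with the enzymes that process collagen, had 16 genes, all tested, all well above background on all 10 arrays and all with a lower late mean (median -0.71). Its mean level was 2.84 to 3.23 early and 2.04 to 2.45 late, without overlap. However, 5 of the 16 probes were saturated on at least 1 array, and over the 11 never saturated the means overlapped, with a median of -0.69. An unadjusted p under 0.05 was reached by 3 of 16, beside 3.6% of all probes. Col1a1, the main chain of type I collagen, was 7.22, 6.74, 5.88 and at least 5.36 early and 6.08, 5.96, 4.71, 3.82, 4.65 and 4.47 late. The value of W0 is a lower bound because its probe was saturated there. Col6a2, a chain of type VI collagen, was never saturated and ran from 0.72 to 1.81 early and from -0.61 to 1.27 late, with overlap.

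Elastin had a larger difference than any gene of the collagen list. Eln, the protein of elastic fibres, was 1.73, 1.41, 2.54 and 2.40 early and -0.38, -0.91, -2.62, -1.86, 0.11 and -0.036 late. Every late array lay more than 1 log2 unit below the lowest early one, and the mean was 7.81-fold lower (difference -2.97 ± 0.56, limma adjusted p = 0.658). Adamts17, a secreted metalloprotease of the matrix, was -0.56, -1.17, -2.28 and -1.72 early and -3.07, -4.07, -5.20, -5.49, -3.93 and -4.57 late, a difference of -2.96 ± 0.52. After normexp the difference was -1.23 for Adamts17 and -2.46 for Eln. Of the basement membrane list, 2 of 11 genes were lower late at an unadjusted p under 0.05, beside 3.6%. They were Col4a1 and Col4a2, the chains of type IV collagen, whose highest values were on D6 and D10.

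Antibody transcripts went the other way. The probe named Igh, of the immunoglobulin heavy chain locus, was 1.69, 2.34, 2.08 and 4.51 early and 4.59, 6.37, 5.48, 5.24, 5.64 and 6.40 late. The groups did not overlap, but W0 and W3 were next to each other, and W6, W9 and W15 are lower bounds through saturation. The mean was at least 7.79-fold higher late (limma adjusted p = 0.658), and both Igh probes were higher. Jchain, the chain that joins secreted IgM and IgA, was 1.61, -1.10, -0.11 and 1.28 early and 1.67, 4.43, 4.04, 1.80, 4.89 and 4.21 late. W3 stood just above D6, and the difference was 3.09 ± 0.78.

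The B cell list as a whole moved with the arrays left out. Of the B cell list, 11 of 12 genes were tested, and Jchain and Igh-6 were higher late at an unadjusted p under 0.05, beside 1.58% of all probes, whereas 8 of the 12 had a lower late mean and the median was -0.21. The median was 0.71 without D6 and D10, 0.38 without W9 and W12 and 1.25 without all 4. In HFC it was 1.25 with 12 of 12 genes higher late, and 0.40 without the HFC arrays of W6 and W12. T cell and B cell lists were highest on W6 (0.52 and 0.35). The probe of LOC100047788, singled out after its values were seen, was 44.3-fold higher late, with -5.06 to -2.08 early and -1.47 to 4.52 late.

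**Figure D3:**
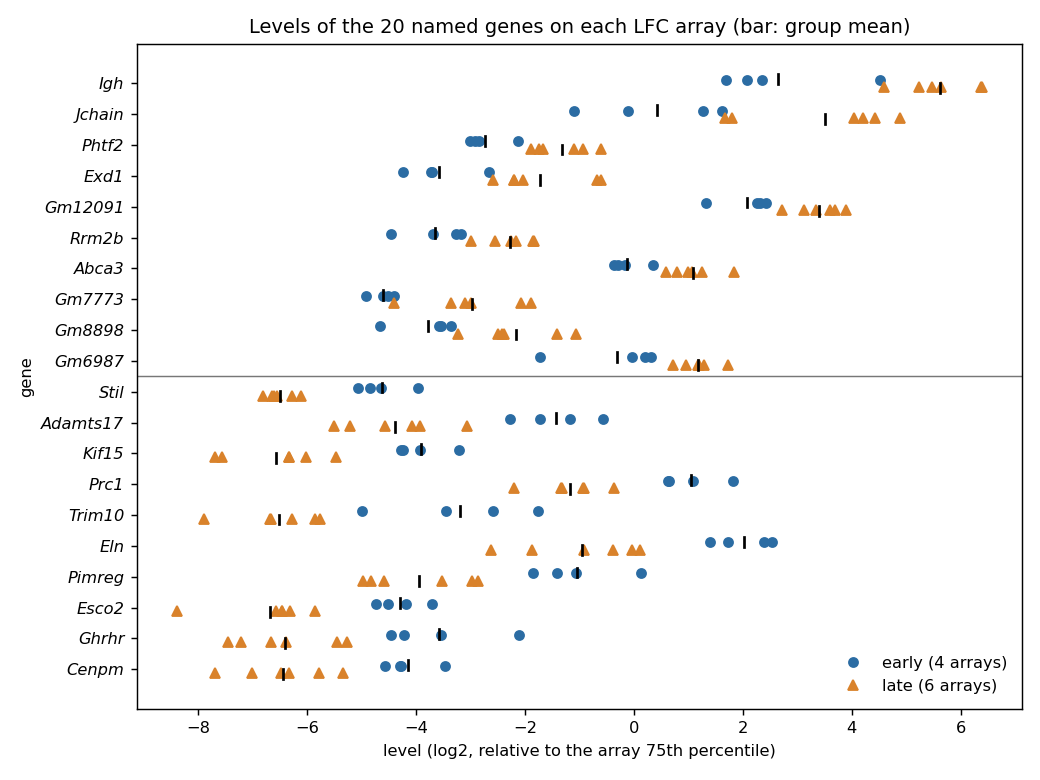
Levels (log2, relative to the array 75th percentile) of the 10 genes higher late and the 10 lower late with the smallest p among non-overlapping probes, with 1 point per LFC array (circles early, triangles late) and a bar at each group mean. The genes were chosen, among probes with a gene symbol, for the absence of overlap. They also had to be well above background on every array of the higher phase. Neither trait is therefore a finding. Eln shows a wide gap, whereas Igh and Jchain nearly touch.

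The 20 named genes had the smallest p among non-overlapping probes with a gene symbol, identifiers such as LOC numbers left out. Each had to be well above background on every array of the phase where it was higher, and the rule asked nothing of the other phase. Those lower late included several of cell division, which this rule let in through the early arrays. Stil, needed for the duplication of centrioles, was -4.63, -3.97, -5.06 and -4.84 early and -6.81 to -6.10 late, where it was well above background on 1 of 6 arrays (difference -1.87 ± 0.32). After normexp the Stil difference was -0.35. Kif15, a spindle motor, and Esco2, which acetylates cohesin, were well above background on all 4 early arrays and on no late one, so their means were at least 5.45-fold and at least 4.39-fold lower. After normexp their differences were -0.53 and -0.40 on the log2 scale. Pimreg, a protein of mitotic cells, and Cenpm, of the centromere, were lower by 2.91 and 2.28 on the log2 scale, with 5 and 1 of 6 late arrays well above background. After normexp these differences were -1.23 and -0.41. Trim10, known from maturing red cells, and Ghrhr, the receptor of growth hormone releasing hormone, were lower by 3.33 and 2.82, but each was well above background on only 2 of 6 late arrays. After normexp they differed by -0.75 and -0.64.

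Among the 10 higher late, besides Igh and Jchain, the differences were smaller. Rrm2b, the p53-induced subunit of ribonucleotide reductase, was -4.45 to -3.16 early and -2.99 to -1.83 late, while its replication counterpart Rrm2 was lower late. Abca3, a lipid transporter, was higher late by 1.21 on the named probe, but its other measured probe was lower late. Phtf2 was higher by 1.40 and Exd1 by 1.87. The other 4 were the predicted genes Gm12091, Gm7773, Gm8898 and Gm6987, higher by 1.32 to 1.65. After normexp the differences were 0.66 for Rrm2b, 0.98 for the named Abca3 probe, 0.88 for Phtf2 and 0.88 for Exd1. Those of the 4 predicted genes were then 0.53 to 1.11.

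Red cell genes were the list with the lowest late median, and that value rested on D6 and D10. All 6 genes measured were lower late at an unadjusted p under 0.05, beside 3.6% of all probes, with a median of -2.31. Alas2, the heme synthesis enzyme of red cell precursors, was 5.82 and 5.97 on D6 and D10, 1.94 and 1.01 on D14 and W0, and -1.26 to 2.41 late. Slc4a1, the anion exchanger of the red cell membrane, was 1.74 on both D6 and D10 and highest among the late arrays on W18 (-0.43). Without D6 and D10 the median of the list was -1.12.

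Growth genes under imprinting were lower late in part. Of 15 genes with a probe 13 were tested, 3 were lower late at an unadjusted p under 0.05, beside 3.6% of all probes, and the median over all 15 was -0.62. Without D6 and D10 the median was -0.27, and 0 of 13 were lower late at an unadjusted p under 0.05, beside 1.82%. H19, a fetal growth-linked RNA, was 0.47 and 0.16 on D6 and D10, -2.96 and -4.61 on D14 and W0 and -6.53 to -2.32 late. Dlk1, a marker of adipocyte precursors, and Ndn, which restrains their growth, differed by -1.43 and -0.87, both with overlap. Igf2 had no order in time, with W18 at 3.75 above D10 at 3.64.

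Macrophage genes overlapped between phases in all 16 members over the 10 arrays. Of 16 genes, all tested, 2 were lower late at an unadjusted p under 0.05, beside 3.6% of all probes (C1qb, a chain of complement C1q, and Fcgr1, an antibody receptor), and 15 of 16 had a lower late mean, with a median of -0.67. Leaving out 1 array at a time, the median ran from -0.94 to -0.38. Without W9 and W12, 4 of 16 were lower late at an unadjusted p under 0.05, beside 2.47%. Without D6, D10, W9 and W12 it was also 4 of 16, beside 1.27%, with 5 not overlapping, beside 4.28%, and a median of -0.87. Adgre1, which encodes the F4/80 antigen, was 2.57, 1.87, 2.29 and 3.36 early and 0.55 to 2.71 late, with a late median of 1.81. Csf1r, the receptor of the macrophage growth factor, was 0.82 to 2.40 early and 0.21 to 2.14 late. Both overlapped widely, and W0 had the highest Adgre1 level.

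The order of the arrays over time gave no call either. With the rank of the elapsed day in the limma fit, 0 of 30321 probes had an adjusted p under 0.05 (smallest 0.444), and 1618 had an unadjusted p under 0.05 (5.34%), 623 with a slope above 0 (2.05%) and 995 with one below 0 (3.28%). Spearman's rho with elapsed day is given as a description over 10 arrays. Its median was -0.80 over the 19 mitosis genes and -0.56 over the 21 replication genes. No median over all probes was taken to set beside these values, and the same genes had lower late means.

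The 5 genes of lowest rho were Sgo1, Rcc1, Pbk, Gm6393 and Nuf2. Sgo1, shugoshin, which protects the cohesion of sister chromatids, was -0.54, -1.72, -1.78 and -1.31 early and -2.61, -1.89, -2.69, -3.30, -3.19 and -3.43 late (rho -0.95). Nuf2, of the kinetochore, had a rho of -0.93 and ran from -0.065 on D6 to -4.74 on W12. Pbk, a mitotic kinase, had a rho of -0.94 and its lowest level on W18 (-5.88), and was well above background on 5 of the 6 late arrays. Rcc1, the nucleotide exchange factor of Ran, and the predicted gene Gm6393 had rho values of -0.95 and -0.94.

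Of the 5 genes with the highest rho, Pink1, the kinase that marks damaged mitochondria, was well above background on all arrays and differed in small steps between arrays. Its levels were 1.80, 1.76, 1.87 and 2.16 early and 2.56, 2.51, 2.89, 3.32, 2.90 and 3.17 late (rho 0.94). Foxf2, a transcription factor of mesenchymal cells, ran from -7.02 on D6 to -2.75 on W18 (rho 0.94), and 2 of its 4 early values were well above background. H1f2, a linker histone, Wdr70 and the predicted gene Gm8663 had rho values of 0.92. After normexp the late minus early difference went from 2.01 to 0.29 for Foxf2 and from 0.89 to 0.34 for Wdr70.

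**Figure D4:**
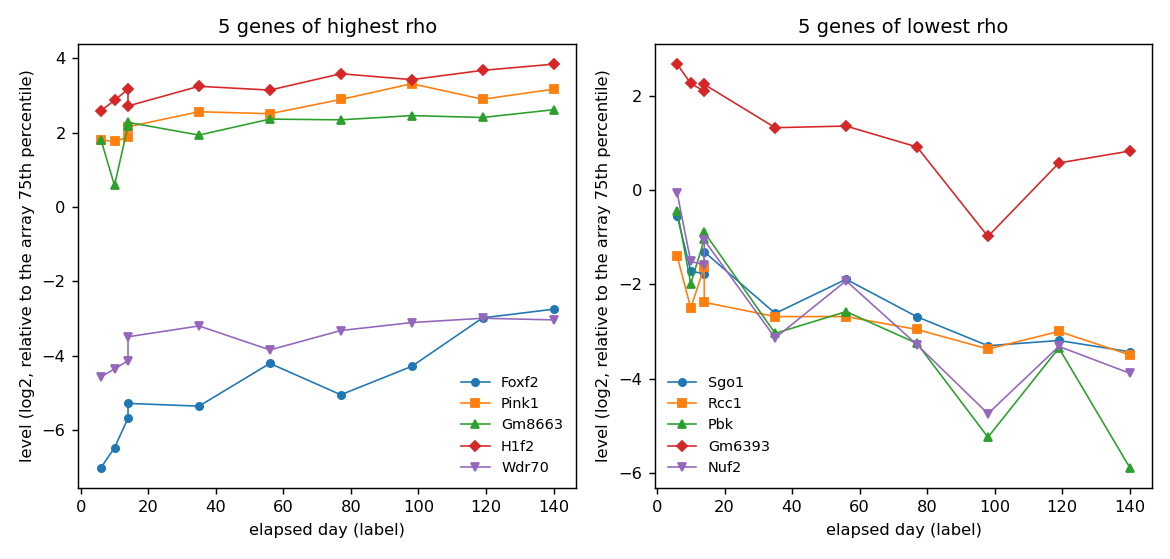
Levels (log2, relative to the array 75th percentile) of the 5 genes of highest and the 5 of lowest Spearman rho against elapsed day on the 10 LFC arrays, with lines joining the arrays. They were chosen for this order, which is therefore no finding. Pink1 runs from 1.80 to 3.17 and Sgo1 from -0.54 to -3.43.

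The HFC arrays gave the same time points in other mice. Whether late minus early differed between the diets was tested with the time point as a block over 20 arrays, and 0 of 33177 probes had an adjusted p under 0.05 (smallest 0.386), while 2621 had an unadjusted p under 0.05 (7.9%), of which 1379 were higher in HFC (4.16%) and 1242 lower (3.74%). Within HFC alone, 0 of 32916 probes had an adjusted p under 0.05. An HFC array shares the scan day of the LFC array of its time, so the scan order is common to both diets. Among the HFC arrays, W6 stood apart by its mesothelial genes (mean -4.11, against 0.68 to 3.20 on the other 9) and its visceral fat factors (-5.50). HFC W12 had 4850 outlier-flagged spots and 91.6% of probes well above background. HFC list values are therefore also given without W6 and W12. HFC W9 had a low immediate early mean (0.70, against 4.25 to 5.19 on the other 9), as W9 and W12 had in LFC. Its inflammatory macrophage mean was -3.89 (against -0.74 to 1.71) and its adipocyte mean 5.12 (against 1.40 to 3.06). HFC W9 was kept in all HFC list values.

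Mitosis genes had lower late means in HFC too. Of the 19, 18 had a lower late HFC mean, with a median of -1.30 (-1.63 without HFC W6 and W12), and the mean level of the list ran from -1.04 to 0.25 early and from -2.48 to -0.71 late, with overlap. Ccnb2, Cdk1 and Prc1, named here after their values were seen, did not overlap in HFC either. In HFC 1.5% of the probes tested in LFC were lower late without overlap, and 0.112% were so in both diets. Ccnb2 in HFC was 2.68, 1.82, 1.63 and 1.18 early and 0.51, 1.07, 0.27, 0.77, -0.94 and -0.35 late.

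Other genes differed in how far the diets matched. Eln was lower late without overlap in HFC by 2.96 on the log2 scale, beside 2.97 in LFC, and Adamts17 by 2.77, beside 2.96. Without HFC W6 and W12 the HFC differences were -2.71 for Eln and -2.81 for Adamts17. Ube2c differed by -0.082 in HFC against -2.09 in LFC, a difference between the diets of 2.01 ± 0.90 that did not pass adjustment (adjusted p = 0.630). Mcm2 was higher late in HFC by 0.98. The HFC values of Ube2c and Mcm2 include W6 and W12, the late HFC arrays with the highest mitosis means (-0.71 and -0.92). Jchain and Igh were higher late in HFC too, by 1.32 and 1.38 (0.97 and 1.35 without HFC W6 and W12). The replication list had a median of -0.66 in HFC with 20 of 21 genes lower, the interferon list -0.78 with 13 of 14, and the collagen list -0.79 with 14 of 16. Without HFC W6 and W12 these medians were -0.87, -0.90 and -0.65. The collagen means did not overlap in HFC either, with 3.19 to 3.55 early and 2.10 to 3.10 late.

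**Figure D5:**
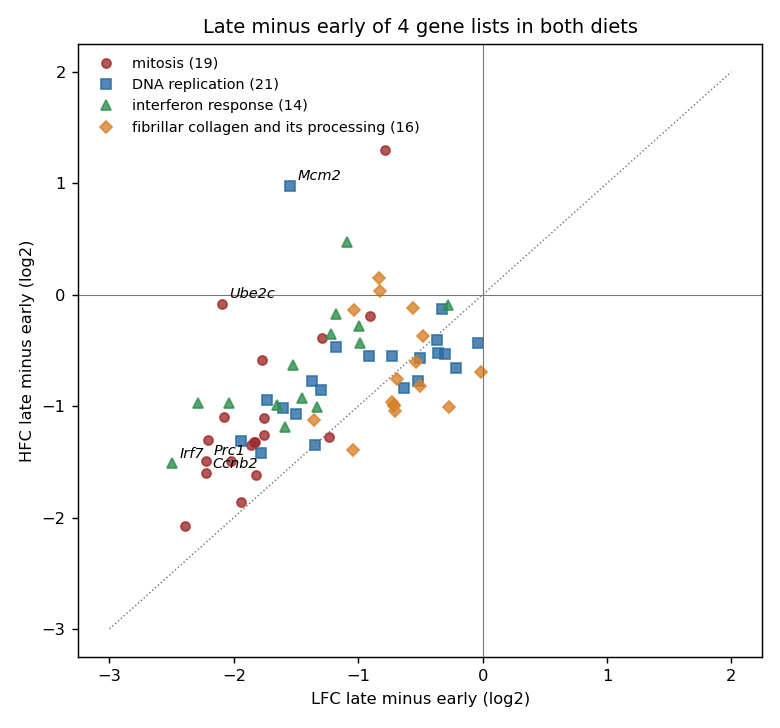
Late minus early difference (log2) of each gene of 4 lists in LFC (horizontal) and HFC (vertical), with the dotted line marking equal differences. All 70 points lie left of 0 in LFC, and Ube2c and Mcm2 lie near or above 0 in HFC. The HFC values include W6 and W12.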

How the data were processed

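Total RNA of each sample was hybridised to 1 Cy3 array. Per the file headers, the deposited scanner files were made by Agilent Feature Extraction 10.5.1.1 and hold intensity values: the processed signal is background-subtracted and detrended, and the mean foreground and median background intensity are unprocessed. The deposited series table holds log2 ratios to LFC and was not used here, since its LFC columns are 0. Outlier-flagged spots were left out of the 43803 non-control spots, log2 levels were shifted by each array's 75th percentile, and replicate spots were averaged into 40628 probes. A gene table named 69.3% of probes; no coordinates of genes were taken from it. A gene was represented by its probe of highest mean level. Tests used limma 3.58.1 in R 4.3.3 (lmFit, eBayes, two-sided, Benjamini-Hochberg over all tested probes, 0.05), tested on simulated data. No time label had a replicate within a diet, though D14 and W0 share an elapsed day. The p-values of late minus early therefore measure the spread between time points of a phase. Those of rank order measure the spread about a line over time. Those of the diet difference measure the spread of HFC minus LFC between time points of a phase. The number of arrays limits precision. Named genes for late minus early were the 10 higher and 10 lower of smallest p that did not overlap. They needed 1 gene symbol other than an identifier such as a LOC number, and every array of the higher phase well above background. For rank order the named genes were the 5 highest and 5 lowest rho. Of each of 36 gene lists they were the first 2 measured and up to 4 by smallest p. Members and lists were chosen with earlier results of these data known. Alternatives were quantile scaling, normexp (offset 50), other filters, other time scales and each array left out. Leaving out D6, D10, W9 and W12, and HFC W6 and W12, was chosen after seeing the data. The result of 1 gene is not reported here.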

Additional observations from a re-analysis of the deposited data

Results flagged for a closer look

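In groups of 4 early and 6 late arrays, the gap of the highest or lowest array to its neighbour was set against the range of the group, for 134 groups (36 list means and 31 named genes in both phases). Chance flags about 1 in 20 groups, and 13 were flagged. Among early list means, these were inflammatory macrophage genes on W0 (1.33, nearest other -0.51), subcutaneous fat transcription factors on D6 (-3.35), epididymis genes on D14 (4.16, nearest other -5.23), DNA replication on D6 (0.46) and heat shock genes on D10 (5.66). Among late list means, they were T cell genes on W6 (0.52, nearest other -2.31), brown fat genes on W15 (-3.48), erythroid genes on W18 (-1.70) and pancreas genes on W12 (-3.99). Of the named genes, Gm12091 was flagged on D14 (1.33), Gm8898 on D6 (-4.67), Esco2 on W12 (-8.38) and Gm6393 on W12 (-0.98). D6 thus stood apart from the other early arrays in the DNA replication mean. D10, D14 and W0 (-0.26, -0.29 and -0.17) still lay above the highest late mean (-0.39). W12 had the lowest late value of Esco2, where the probe was not well above background.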

How the results depend on the processing

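No paired analysis was possible because early and late arrays within a diet share no time point. The diet comparison had the time point as a block. The count of adjusted calls was 0 under every alternative run for late minus early and for the diet difference. For rank order, leaving out 1 array at a time gave 0 to 1 calls; the 1 call, without W6, was LOC100047788 (limma adjusted p = 0.0365). Counts at an unadjusted p under 0.05 moved more: for late minus early from 1573 to 457 after normexp, 824 without D6 and D10 and 656 without D6, D10, W9 and W12, and over single arrays left out from 994 (D10) to 2955 (W0). For rank order they moved from 1618 to 340 after normexp and, over single arrays, from 894 (D6) to 2702 (W15). For the diet difference they moved from 2621 to 1121 without the time point block, 1286 without D6 and D10 and 1702 without all 4. The median difference between diets over all probes changed sign with the scaling (0.10, against -0.04 by quantile and 0.46 by normexp).

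Of 1222 alternative values for named genes, 1 changed sign: Abca3, at -0.079 with the median over its probes. Many of these genes were chosen for not overlapping between phases or for their order in time. Where early and late arrays did not overlap, leaving out arrays could not change the sign of the difference. The small number of sign changes is therefore in part set by the choice of genes. Leaving out 1 array, the mitosis median stayed between -2.16 and -1.52, replication between -1.19 and -0.66, interferon between -1.62 and -1.17 and collagen between -0.79 and -0.52. Without D6 and D10 the brown fat median turned from -0.76 to 1.14, the visceral fat factors from 1.04 to -0.40 and the mesothelial list from 1.48 to -1.36. In simulated data with the spread of these arrays, 0 of 200 probes changed 1 log2 unit between phases were called, 36 of 200 at 2 units and 169 of 200 at 4 units, over 26981 probes. Unchanged probes called were 6 at 2 units and 8 at 4 units. For rank order and for the diet difference, 0 of 200 were called at 2 units. At 4 units 110 and 98 of 200 were called. The simulated probes varied independently of each other.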

Other observations

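Lipid and energy genes had medians near 0 over all 10 arrays, and some of them moved when W9 and W12 were left out. Fatty acid synthesis genes (14) had a median late minus early difference of 0.06 and were highest on W9 and W12 (means 3.68 and 4.34), the arrays with the highest adipocyte means. Of the 14 probes, 6 were saturated on W9 and 8 on W12, so these means are lower bounds. Over the 6 never saturated the median was 0.25. Without W9 and W12 the median of the 14 genes was -1.17, and 6 of 14 were lower late at an unadjusted p under 0.05, beside 2.47% of all probes. Respiratory chain genes (18) had a median of 0.01, with the 4 highest means on D6, D10, W9 and W12 (4.36, 4.34, 4.57 and 4.73). Here 6 of the 18 probes were saturated on W9 and 10 on W12, and the median over the 8 never saturated was 0.02. Cholesterol synthesis genes (14) had a median of 0.08. Without W9 and W12 the respiratory chain median was -0.36 and the cholesterol synthesis median -0.49. Growth hormone and IGF genes (12) had a median of 0.09, with means from 0.80 to 1.71 on the 10 arrays. The Cdk inhibitors, which hold the cell cycle back, had a median of 0.29 over 9 genes, and -0.15 without W9 and W12.

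The immediate early list had a median of -1.52 with W9 and W12 and of -0.07 without them, and the inflammatory macrophage list, whose lowest means were on the same arrays, had -0.10 without them. Endothelial genes had a median of -1.07, and of 0.04 without D6 and D10. Of the 36 lists, 26 had a median below 0, beside a median of -0.09 over all tested probes.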
